A study of Homo sapiens with 36 samples.

Results

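The genes of sterol and fatty acid synthesis were followed on 36 Affymetrix expression arrays of U2OS ER-HA-E2F1 cells, a human osteosarcoma line that stably carries E2F1 fused to the hormone-binding domain of the estrogen receptor, so that 4-hydroxytamoxifen (OHT) activates the fusion protein. The set is a list of 33 genes, each read from its brightest probe set (by mean log2 signal) among those that the array annotation gives to that gene alone. Of the 33 genes, 29 had such a probe set, among 11963 genes on the array that did. FADS1 and CYP51A1 were named only together with another gene (MIR1908 and LRRD1), so their probe sets are described under both names and left out of the counts, and FDFT1 and ACSL3 were not analysed here. Cells were transfected with an NFYB siRNA, from Ambion or from Dharmacon, or with a negative control siRNA, from Dharmacon or from Sigma-Aldrich. Starvation of serum began 18 h later and had lasted 24 h when 80 nM OHT was added for 0, 4 or 8 h. Each of the 12 conditions had 3 biological replicates, so that each arm held 6 arrays at each time with its 2 siRNAs pooled. All arrays carried the ER-HA-E2F1 transgene, starvation was common to all of them, and each array at 4 or 8 h had OHT in both arms. In the change with time of OHT, activation of E2F1 therefore cannot be told apart from OHT itself or from further hours without serum. The study cites earlier work in which OHT had minimal effect on the parental line, which was not on these arrays.

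Cholesterol is built from acetyl-CoA through mevalonate, farnesyl diphosphate, squalene and lanosterol, and fatty acids are built from the same acetyl-CoA by way of malonyl-CoA and palmitate, which is then elongated, desaturated and activated by acyl-CoA synthetases. Both branches are induced by the SREBP transcription factors (genes SREBF1 and SREBF2), which are held in the endoplasmic reticulum by INSIG proteins when sterols are plentiful and are cleaved and sent to the nucleus when sterols are scarce. SREBPs bind DNA weakly by themselves and often work beside NF-Y, the trimer of NFYA, NFYB and NFYC that binds the CCAAT box. The arrays asked how knockdown of NFYB changes expression in cells where E2F1 is switched on, and the lipid genes were read within that design.

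NFYB was lower in NFYB siRNA cells at each time. Its MAS5 signal, a linear intensity, averaged 66.6 ± 10.7, 113 ± 38.8 and 127 ± 46.8 at 0, 4 and 8 h in NFYB siRNA cells, against 187 ± 15.7, 438 ± 38.9 and 649 ± 59.5 in control siRNA cells (SD, n = 6 each). At each time every NFYB siRNA array lay below the lowest control array. The array medians of all probe sets lay between 100.5 and 119.7, replicates of a condition correlated at r = 0.951 to 0.962 across log2 signals, and the number of arrays limits the precision. Of 8 mesenchymal and bone lineage markers, VIM, SPARC and FN1 stood at the 98.1 to 99.5 percentile of signal and COL1A1, CDH2 and THY1 at 91.5, 90.0 and 76.6, while COL1A2 and RUNX2 were dim (25.9 and 21.9). The summed signal of 6 epithelial markers was 332 to 547 in NFYB siRNA arrays and 318 to 544 in control siRNA arrays, most of it EPCAM, and that of 5 adipocyte markers was 116 to 232 in NFYB siRNA arrays and 86.5 to 164 in control siRNA arrays, with ADIPOQ and LEP near the floor of the array. Most of the adipocyte sum was CIDEC and FABP4, and FABP4, a fatty acid binding protein, averaged 60.5, 40.8 and 50.4 at 0, 4 and 8 h in NFYB siRNA cells, against 27.0, 11.95 and 31.7 in control siRNA cells. Its part in the results was not tested.

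In the pooled fit, lipid synthesis genes were lower with NFYB siRNA or not called, read on their brightest probe sets. In that fit the number of lower genes was greatest at 8 h of OHT. Called means an adjusted p under 0.05 in limma, over all probe sets. Of the 29 genes, 1 was called lower at 0 h, 3 at 4 h and 9 at 8 h, where 2.37%, 1.77% and 2.57% of all genes were called lower. The 29 genes stood at the 51.7 to 98.1 percentile of signal, whereas all genes include dimmer ones. At 8 h, 689 probe sets were called lower in the upper 60% by signal, against 547 over all. A share among genes of like signal was not computed, and the list was chosen with earlier results of these data known. The 9 genes were HMGCS1, MSMO1 and EBP of the sterol branch, FADS2, SCD and ELOVL6, which desaturate or elongate fatty acids, and ACSL4, LPIN1 and LPIN2, which activate fatty acids or make diacylglycerol. None was called higher in this limma fit at any time, where 1.96%, 1.81% and 2.71% of all genes were. Unadjusted p was under 0.05 in the higher direction for 2, 1 and 1 genes. The unequal-variance test of the study's methods, read at the same adjusted p on the same probe sets, called none higher either. The study set its own limits of p and fold change for its lists, so its calls can differ. The median log2 fold change over the 29 genes was -0.11, -0.08 and -0.14 at the 3 times, against -0.00, -0.00 and -0.01 over all genes. The groups of 6 arrays did not overlap for 1, 3 and 5 of the 29 genes, all lower, where 1.75%, 1.29% and 1.98% of all genes were separate and lower and 1.32%, 1.13% and 2.06% separate and higher. In bulk RNA, fewer cells that express a gene and less of its RNA per cell cannot be told apart. The study's gene lists, chosen for a change with knockdown after OHT on these same arrays, hold HMGCS1, SCD, ELOVL6, FADS1, LPIN1, LPIN2, INSIG1, SQLE, ACSL1 and ACSL3, so the 8 h values of these genes are not independent of that choice. The study lists SQLE among genes further raised by knockdown, on a probe set other than the brightest. The order over the 3 times was not kept in each fit. Leaving out an array or a replicate number gave 1 to 3 lower genes at 0 h and 0 to 9 at 8 h. The count of 9 at 8 h rests on the siRNAs and on the arrays used. It was 1 (ACSL4) with the Ambion NFYB siRNA alone, 4 against the Sigma-Aldrich control alone, 2, 0 and 2 without the arrays of replicate number 1, 2 or 3, and 2 or 3 in the methods' test on linear or log2 signal. The calls over all probe sets moved as well, with 547 lower in the pooled fit, 334 with Ambion alone, 694 against Sigma-Aldrich alone, 150, 78 and 193 without replicate number 1, 2 or 3, and 230 or 249 in the methods' test.

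**Figure D1:**
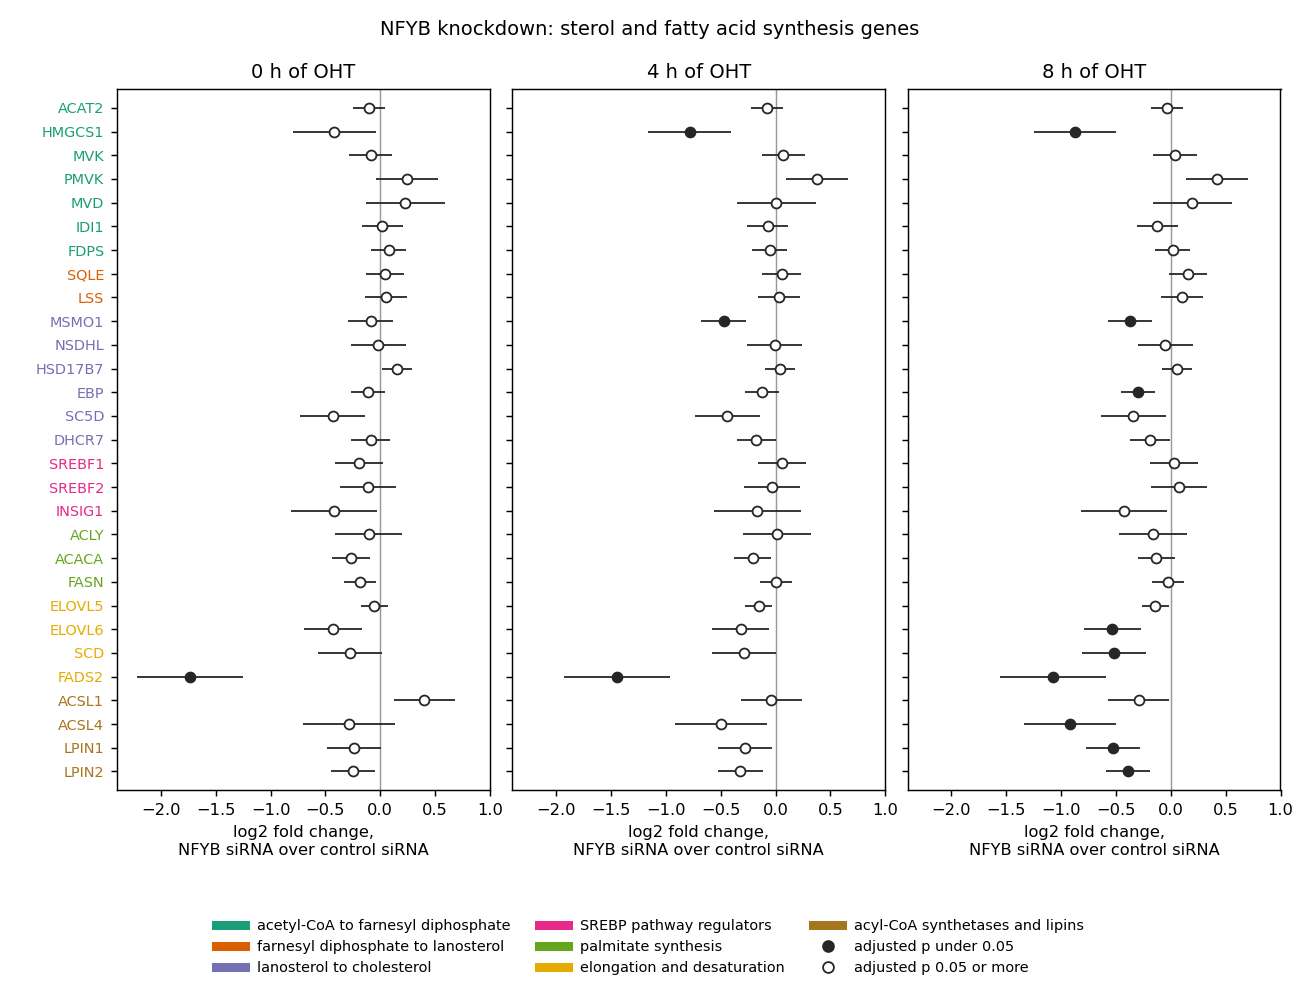
Log2 fold change of NFYB siRNA over control siRNA (horizontal axes) for the 29 genes (vertical axis, coloured by role) at 0, 4 and 8 h of OHT. Points are limma estimates from 6 arrays per arm and bars are 95% intervals, and filled points have an adjusted p under 0.05. FADS2 stands furthest left at each time, and 9 filled points, all below 0, are seen at 8 h.

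Promoters of the lipid genes differ in how many CCAAT boxes lie near the start, and 6 are shown because the results that follow come back to them: 4 genes called lower at 8 h with boxes (HMGCS1, MSMO1, EBP, SCD), NSDHL, which has 5 boxes and was not called with knockdown, and FADS2, which had the greatest decrease and has none in this window. Each sequence is the 250 bases before the annotated start, 5′ to 3′ on the strand of the gene, from RefSeq on GRCh38.p14, and capitals mark CCAAT or ATTGG, which is the same box on the other strand. The windows are HMGCS1 at chr5:43313413-43313662 (minus strand), MSMO1 at chr4:165327419-165327668 (plus strand), EBP at chrX:48521558-48521807 (plus strand), SCD at chr10:100346983-100347232 (plus strand), NSDHL at chrX:152830813-152831062 (plus strand) and FADS2 at chr11:61815953-61816202 (plus strand).
HMGCS1: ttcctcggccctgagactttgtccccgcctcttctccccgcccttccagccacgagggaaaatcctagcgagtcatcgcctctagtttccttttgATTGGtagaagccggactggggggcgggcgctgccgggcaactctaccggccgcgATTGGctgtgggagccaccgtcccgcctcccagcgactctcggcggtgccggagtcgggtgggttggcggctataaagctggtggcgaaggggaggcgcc
MSMO1: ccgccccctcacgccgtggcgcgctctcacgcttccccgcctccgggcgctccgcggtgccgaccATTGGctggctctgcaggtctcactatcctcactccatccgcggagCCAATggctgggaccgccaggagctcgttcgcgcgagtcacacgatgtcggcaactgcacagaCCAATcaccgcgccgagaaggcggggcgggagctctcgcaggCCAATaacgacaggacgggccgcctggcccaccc
EBP: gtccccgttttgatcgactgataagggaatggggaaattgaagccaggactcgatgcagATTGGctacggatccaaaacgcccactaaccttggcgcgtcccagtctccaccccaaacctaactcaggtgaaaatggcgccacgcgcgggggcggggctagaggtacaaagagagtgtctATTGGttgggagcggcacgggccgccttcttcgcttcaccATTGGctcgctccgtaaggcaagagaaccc
SCD: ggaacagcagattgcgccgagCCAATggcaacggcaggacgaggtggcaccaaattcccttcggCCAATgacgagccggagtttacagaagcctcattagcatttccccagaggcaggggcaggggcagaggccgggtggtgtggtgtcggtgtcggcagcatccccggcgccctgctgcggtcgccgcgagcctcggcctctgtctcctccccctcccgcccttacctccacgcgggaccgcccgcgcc
NSDHL: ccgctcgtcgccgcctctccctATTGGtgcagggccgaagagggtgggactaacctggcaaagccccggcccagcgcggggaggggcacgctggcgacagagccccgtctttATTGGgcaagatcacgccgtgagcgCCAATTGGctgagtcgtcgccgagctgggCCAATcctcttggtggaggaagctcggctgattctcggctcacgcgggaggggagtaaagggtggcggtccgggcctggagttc
FADS2: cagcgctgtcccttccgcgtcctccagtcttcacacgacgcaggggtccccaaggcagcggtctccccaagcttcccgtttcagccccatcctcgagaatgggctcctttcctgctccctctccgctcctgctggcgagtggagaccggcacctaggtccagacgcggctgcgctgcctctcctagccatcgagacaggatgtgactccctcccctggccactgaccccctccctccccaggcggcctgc

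HMGCS1, the synthase that makes HMG-CoA at the entry to the mevalonate pathway, was the sterol gene with the greatest decrease at 4 and 8 h. At 8 h its lowest, median and highest signals were 626, 902 and 1244 in NFYB siRNA cells and 1212, 1651 and 2169 in control siRNA cells. All but the brightest NFYB siRNA array lay below every control array. The log2 fold change was -0.87 (SE 0.19, adjusted p = 0.0031). At 4 h the values were 832, 1145 and 1225 in NFYB siRNA cells and 1311, 1883 and 2380 in control siRNA cells, with no overlap (-0.78, SE 0.19, adjusted p = 0.011). At 0 h they were 1676, 1795 and 2122 in NFYB siRNA cells and 1709, 2575 and 3374 in control siRNA cells, and the groups overlapped (-0.42, adjusted p = 0.26). The dimmer HMGCS1 probe set was called lower at every time, at -0.72, -0.62 and -0.87 (adjusted p = 1.1e-07, 2.7e-06 and 1.6e-09). By siRNA, the mean signal of the brighter probe set at 8 h was 1139 with the Ambion and 702 with the Dharmacon NFYB siRNA, against 1978 with the Dharmacon and 1348 with the Sigma-Aldrich control siRNA. On this probe set both calls were lost with the Ambion NFYB siRNA alone, in the methods' test and without replicate number 1 or 2. The 4 h call was also lost against the Sigma-Aldrich control alone and without replicate number 3.

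MSMO1, an oxidase that acts on the way from lanosterol to cholesterol, was called at 4 and 8 h. Its signals at 4 h were 1975, 2365 and 2999 (lowest, median, highest) in NFYB siRNA cells and 2705, 3355 and 4048 in control siRNA cells (-0.47 on the log2 scale, SE 0.10, adjusted p = 0.0041). At 8 h they were 1619, 1899 and 2090 in NFYB siRNA cells and 2221, 2374 and 2800 in control siRNA cells (-0.37, SE 0.10, adjusted p = 0.024). The groups shared part of their range at 4 h and none of it at 8 h. At 0 h the medians were 4116 in NFYB siRNA cells and 4581 in control siRNA cells (-0.09, 95% interval -0.29 to 0.12). The 4 h call of MSMO1 was lost with the Dharmacon NFYB siRNA alone and against the Sigma-Aldrich control alone. It was also lost in the methods' test and without replicate number 3. The 8 h call of MSMO1 was lost with siRNA as a random block (limma adjusted p = 0.062) and without any single array of 4: replicates 1 and 2 of the Dharmacon NFYB siRNA and replicates 1 and 2 of the Dharmacon control siRNA at 8 h (log2 fold changes -0.33 to -0.35). EBP, the isomerase that moves the ring double bond of the sterol nucleus, was called at 8 h alone, with 1071, 1193 and 1325 in NFYB siRNA cells and 1211, 1514 and 1606 in control siRNA cells (-0.30, SE 0.08, adjusted p = 0.015). With NFYB siRNA, 4 of the 6 EBP values were under the whole control range. At 0 h EBP had 1548, 1792 and 1943 in NFYB siRNA cells and 1737, 1904 and 2038 in control siRNA cells, and at 4 h 1308, 1504 and 1874 in NFYB siRNA cells and 1581, 1659 and 1839 in control siRNA cells. The groups overlapped at both earlier times (-0.11 and -0.12, adjusted p = 0.54 and 0.51). The call was lost without replicate 1 of the Dharmacon NFYB siRNA at 8 h (-0.27), and the other EBP probe sets were not called.

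The remaining sterol genes were not called with knockdown. From ACAT2 to FDPS, which carry acetyl-CoA to farnesyl diphosphate, HMGCS1 was the only called gene of 7, and the median log2 fold change of the 7 at 8 h was 0.02. PMVK, a mevalonate pathway kinase, had the highest value of all 29 genes at 4 and 8 h, 0.38 and 0.42 (adjusted p = 0.15 and 0.071). SQLE and LSS, which make and close squalene epoxide, stood at 0.15 and 0.10 at 8 h (95% intervals -0.02 to 0.33 and -0.09 to 0.29). The SQLE probe sets disagreed, with the brightest not called, a dimmer probe set called lower (-0.75, adjusted p = 0.024) and another called higher (0.58, adjusted p = 0.013), so no direction is given for SQLE. NSDHL, the dehydrogenase that acts after MSMO1, was at -0.05 (95% interval -0.30 to 0.20). SC5D and DHCR7, late enzymes of cholesterol synthesis, were at -0.34 and -0.19 (adjusted p = 0.20 and 0.26), and HSD17B7, a sterol ketone reductase, was at 0.06. The probe set annotated to CYP51A1 and LRRD1 was at -0.12 at 8 h (adjusted p = 0.70), and their dimmer probe set was called lower at 0 h (-0.42, adjusted p = 0.042).

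The regulators were not called on their brightest probe sets. SREBF1 stood at 0.03 (95% interval -0.19 to 0.25) and SREBF2 at 0.08 (-0.18 to 0.33) with knockdown at 8 h. INSIG1 had -0.42 at 0 h and -0.43 at 8 h (adjusted p = 0.28 and 0.25). A dimmer INSIG1 probe set was called at 0 h (-0.68, adjusted p = 8e-04) and 8 h (-0.47, adjusted p = 0.024), and a further one at 0 h (-0.83, adjusted p = 0.028).

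Among fatty acid genes FADS2, the desaturase of the entry step to long polyunsaturated fatty acids, had the greatest decrease of the 29 genes at each time. Before OHT its lowest, median and highest signals were 314, 500.0 and 690 in NFYB siRNA cells and 1223, 1422 and 2537 in control siRNA cells (-1.73 on the log2 scale, SE 0.24, adjusted p = 5.7e-06). At 4 h they were 354, 569 and 820 in NFYB siRNA cells and 972, 1471 and 2265 in control siRNA cells (-1.44, adjusted p = 0.00016). At 8 h they were 382, 521 and 771 in NFYB siRNA cells and 800, 1092 and 1611 in control siRNA cells (-1.08, adjusted p = 0.0047). The groups did not overlap at any time. FADS1, the neighbouring gene on the chromosome and the desaturase of a later step, is read by probe sets that the annotation also gives to MIR1908, a microRNA encoded within FADS1. The brightest had 750.5, 1069 and 1473 in NFYB siRNA cells and 2626, 2828 and 2976 in control siRNA cells at 0 h, with log2 fold changes of -1.44, -1.11 and -0.79 at 0, 4 and 8 h (SE 0.14, adjusted p = 1.9e-09, 7.4e-07 and 0.00021). Its 2 other probe sets were called lower at each time as well, and stood at -0.90 and -0.93 at 8 h. On this brightest probe set the groups were separate at 0, 4 and 8 h. Its 4 h values were 1316, 1670 and 2212 in NFYB siRNA cells and 3572, 3674 and 3736 in control siRNA cells, and its 8 h values 2007, 2142 and 2410 in NFYB siRNA cells and 3503, 3748 and 4093 in control siRNA cells. The highest NFYB siRNA array at 8 h was still below the lowest control array of 0 h.

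SCD and ELOVL6 were called at 8 h. SCD, which makes oleate and palmitoleate, had 3044, 4069 and 4973 in NFYB siRNA cells and 4192, 5833 and 6979 in control siRNA cells (-0.52, SE 0.14, adjusted p = 0.027). The 3 arrays beneath the lowest control were those of the Dharmacon siRNA, and the SCD call was lost without any single 8 h array of the Dharmacon NFYB or Dharmacon control siRNA (-0.45 to -0.49). Of its other probe sets, 2 were called lower at 8 h (-0.54 each) and 1 was not (-0.28, adjusted p = 0.38). Before OHT SCD had 5496, 6415 and 7540 in NFYB siRNA cells and 6588, 7861 and 9255 in control siRNA cells, and at 4 h 4548, 5317 and 6725 in NFYB siRNA cells and 5508, 6656 and 7864 in control siRNA cells, with overlap at both times (-0.27 and -0.29, adjusted p = 0.37 and 0.36). ELOVL6, which elongates palmitate to stearate, had 647.5, 857 and 1079 in NFYB siRNA cells and 1118, 1177 and 1353 in control siRNA cells (-0.53, SE 0.13, adjusted p = 0.010) at 8 h. All 6 NFYB siRNA arrays of ELOVL6 lay below the lowest control array, and its other probe set was called as well (-0.54, adjusted p = 0.0042). At 0 h ELOVL6 had 945.0, 1726 and 1995 in NFYB siRNA cells and 1634, 2222 and 2559 in control siRNA cells (-0.43, adjusted p = 0.054), and at 4 h 1206, 1366 and 1539 in NFYB siRNA cells and 1481, 1645 and 2123 in control siRNA cells (-0.32, adjusted p = 0.21). The ranges of ELOVL6 met at these earlier times, at 4 h only at their ends. ACLY, ACACA and FASN, the enzymes that build palmitate from citrate, were not called and stood at -0.16, -0.13 and -0.03 (95% intervals -0.47 to 0.15, -0.30 to 0.04 and -0.17 to 0.12). ELOVL5 was at -0.14 (adjusted p = 0.21).

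ACSL4, an acyl-CoA synthetase that prefers arachidonate, was the dimmest of the genes called at 8 h. At that time it had 67.1, 75.1 and 102 in NFYB siRNA cells and 100.2, 153 and 192 in control siRNA cells (-0.92, SE 0.21, adjusted p = 0.0055). The brightest ACSL4 array with NFYB siRNA reached into the control range and the other 5 did not. At 0 h ACSL4 had 95.8, 140.3 and 226 in NFYB siRNA cells and 145, 178 and 191 in control siRNA cells, and at 4 h 74.7, 88.1 and 186 in NFYB siRNA cells and 81.7, 147 and 177 in control siRNA cells. The ranges overlapped widely then (-0.28 and -0.49, adjusted p = 0.57 and 0.23). LPIN1 and LPIN2 encode lipins, the phosphatases that turn phosphatidate into diacylglycerol. LPIN1 had 432, 608 and 744.5 in NFYB siRNA cells and 749, 823 and 932 in control siRNA cells at 8 h (-0.53, SE 0.12, adjusted p = 0.0069). LPIN2 had 537, 604 and 696 in NFYB siRNA cells and 729, 810.4 and 843 in control siRNA cells (-0.39, SE 0.10, adjusted p = 0.015). For both lipins the groups at 8 h were separate. Before OHT LPIN1 had 1162, 1360 and 1520 in NFYB siRNA cells and 1469, 1594 and 1765 in control siRNA cells, and LPIN2 had 290.5, 328 and 365 in NFYB siRNA cells and 312, 403 and 463 in control siRNA cells. At 4 h LPIN1 had 714, 924 and 1178 in NFYB siRNA cells and 873, 1125 and 1267 in control siRNA cells, and LPIN2 had 492, 552 and 693 in NFYB siRNA cells and 607, 716 and 829 in control siRNA cells. The groups overlapped at both of these times, when LPIN1 stood at -0.24 and -0.28 (adjusted p = 0.33 and 0.25) and LPIN2 at -0.25 and -0.32 (adjusted p = 0.18 and 0.073). ACSL1, an acyl-CoA synthetase for long chains, was at 0.40, -0.04 and -0.29 at 0, 4 and 8 h and was not called (adjusted p = 0.10, 0.95 and 0.26).

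**Figure D2:**
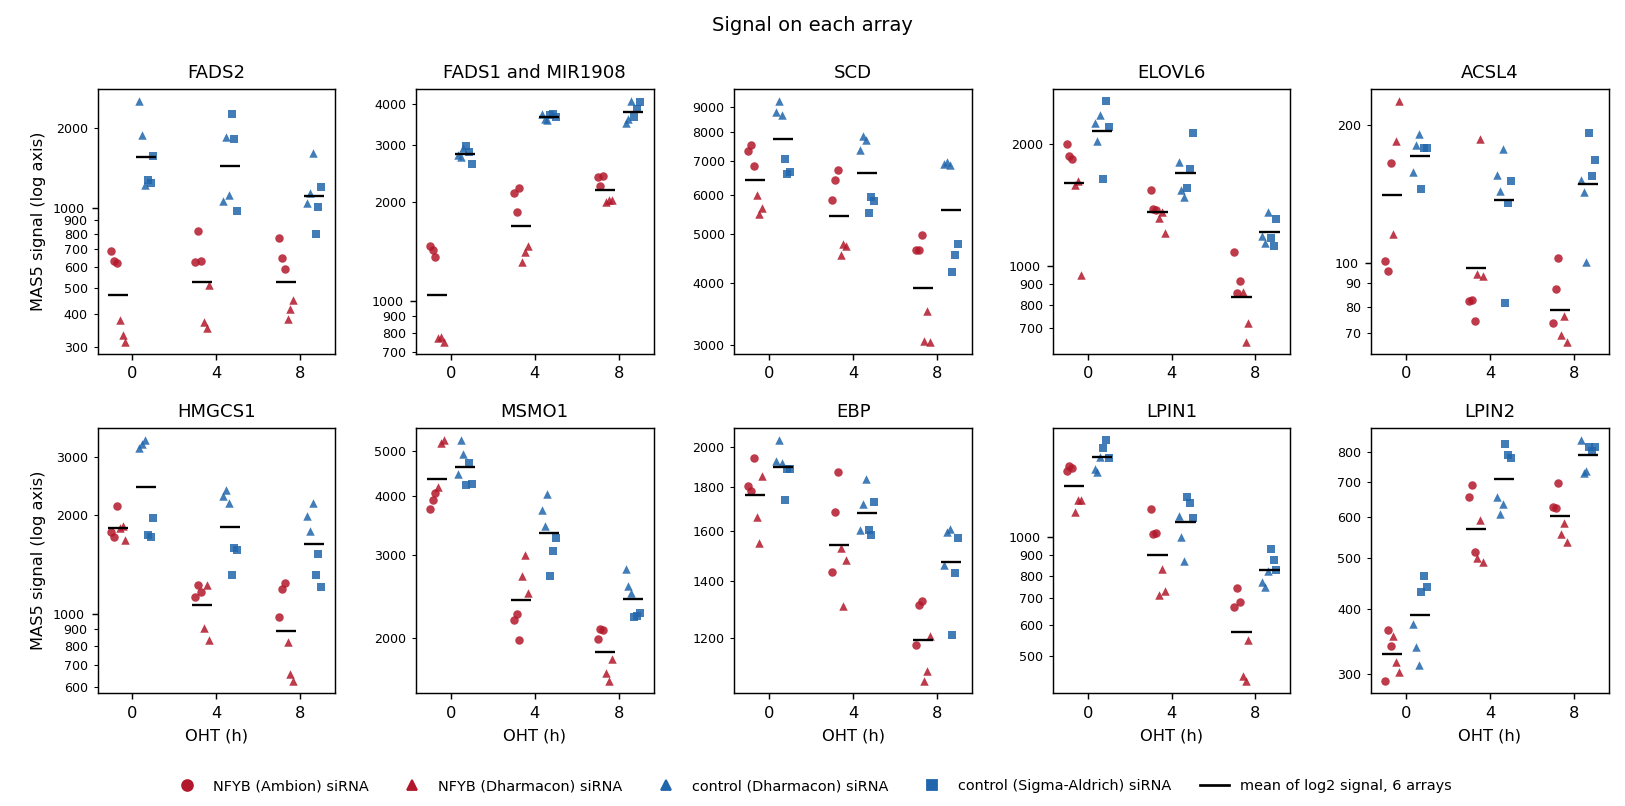
MAS5 signal (vertical axes, log scale) of the 9 genes called lower at 8 h and of the probe set annotated to FADS1 and MIR1908, against hours of OHT (horizontal axes), with NFYB siRNA arrays in red and control siRNA arrays in blue and a symbol for each supplier. Each point is 1 array and bars are means of log2 signal over 6 arrays. FADS2 arrays stay apart at all times, whereas the SCD arrays of the Ambion NFYB siRNA (4637 to 4973 at 8 h) lie among those of the Sigma-Aldrich control (4192 to 4779).

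The siRNAs of an arm were then compared with each other, in a limma fit that kept siRNA by time as 12 groups of 3 arrays. This fit takes no account of the spread between siRNAs, so its p-values do not carry that spread. At 8 h, 7 of the 29 genes were called lower with the Ambion NFYB siRNA against both controls and 13 with the Dharmacon NFYB siRNA, where 4.18% and 10% of all genes were. PMVK was called higher with each siRNA (0.33 with Ambion and 0.51 with Dharmacon) and SQLE with Dharmacon (0.22), so that 1 and 2 genes were higher, where 4.64% and 9.07% of all genes were. HMGCS1, MSMO1, SCD, FADS2, ACSL4, LPIN1 and LPIN2 were lower with each. Examples are HMGCS1, which stood at -0.52 with Ambion and -1.22 with Dharmacon, and SCD, at -0.23 with Ambion and -0.81 with Dharmacon. A direct contrast of the NFYB siRNAs called 7 genes at 8 h, all higher with Ambion (6.04% of all genes were higher and 4.63% lower), among them HMGCS1 (0.70, adjusted p = 0.00016), SCD (0.57, adjusted p = 2.3e-07), SC5D (0.56) and LPIN1 (0.56). FADS2 stood at -1.27, -1.06 and -0.74 at 0, 4 and 8 h with Ambion and at -2.20, -1.82 and -1.41 with Dharmacon.

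The control siRNAs differed as well, and the sterol genes were among those that did. With the Dharmacon control over the Sigma-Aldrich control, 6 of 29 genes were higher and 1 was lower at 8 h, where 6.34% and 8.54% of all genes were. ACLY stood at 0.75 (adjusted p = 6.1e-05), SCD at 0.62 (adjusted p = 2.2e-08), HMGCS1 at 0.55 (adjusted p = 0.0013), INSIG1 at 0.51 (adjusted p = 0.0099), and ACAT2 and SQLE at 0.30 each, while PMVK was lower (-0.52). Before OHT, HMGCS1 stood at 0.87 and INSIG1 at 0.77 in the same contrast. The part that the choice of control siRNA has in the pooled knockdown results was not tested beyond the fits named here. For the 9 genes called at 8 h, the mean of each NFYB siRNA was below the mean of each control siRNA in all 4 pairs for HMGCS1, MSMO1, EBP, ELOVL6, FADS2, ACSL4, LPIN1 and LPIN2 and in 3 of 4 for SCD. Over the 29 genes, 10 had all 4 pairs lower and 2 had all 4 higher (PMVK and MVD), against 17.9% and 16.1% of all genes. The smallest of the 4 pairwise decreases was -0.57 for FADS2 and ACSL4, -0.34 for ELOVL6, -0.24 for HMGCS1 and LPIN2, -0.16 for LPIN1, -0.14 for EBP and -0.12 for MSMO1.

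**Figure D3:**
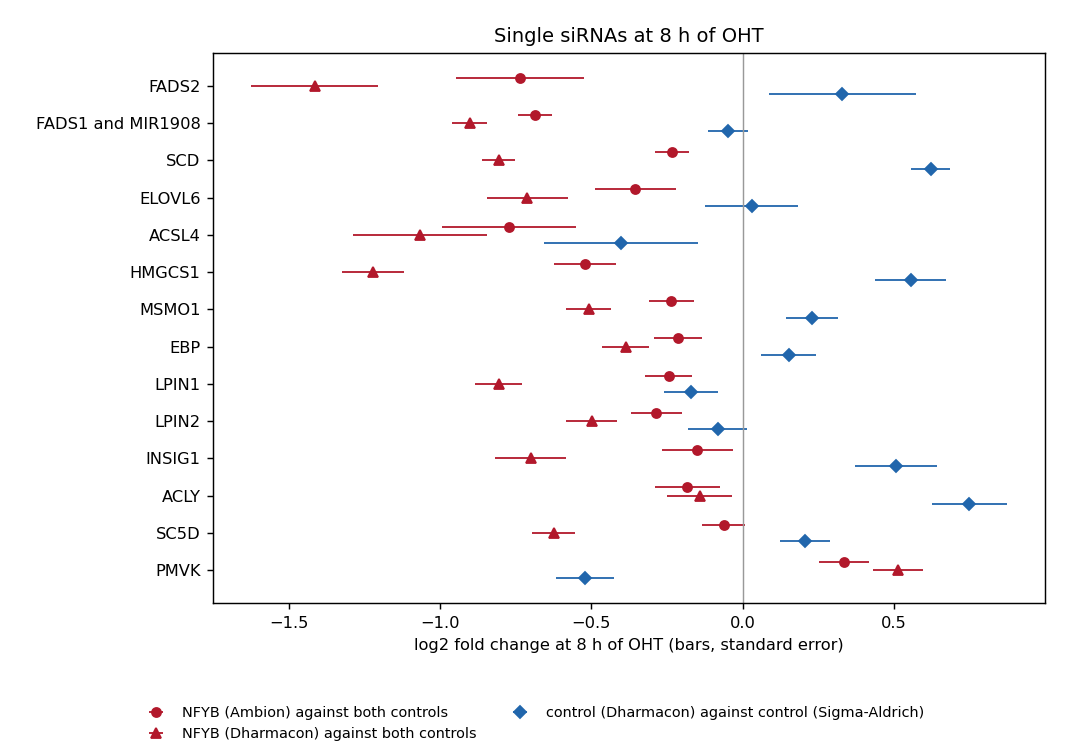
Log2 fold change at 8 h of OHT (horizontal axis) of each NFYB siRNA against both control siRNAs (red) and of the Dharmacon control over the Sigma-Aldrich control (blue), for the called genes, the probe set of FADS1 and MIR1908, INSIG1, ACLY, SC5D and PMVK (vertical axis); points are limma estimates from 3 arrays per siRNA and bars are standard errors. The NFYB siRNAs stand left of 0 for every gene except PMVK, and the blue points of SCD (0.62), HMGCS1 (0.55), INSIG1 (0.51) and ACLY (0.75) are as far from 0 as many red points.

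CCAAT boxes were counted in the RefSeq windows that reach from 250 bases before to 50 bases after the start, on either strand, taking the first listed window of a gene. Windows were found for 29 of the 33 genes, without ACAT2, FDFT1, SQLE and FASN, and 17 of these 29 held at least 1 box, where 35.7% of 27305 genes did. In the sterol branch 11 of 14 genes held a box, with 5 in MVK and NSDHL and 4 in MSMO1. In the fatty acid branch 4 of 12 did: ACLY, SCD, ELOVL5 and ACSL3. SREBF2 and INSIG1 held 1 each, and SREBF1 none. The printed NSDHL sequence has a CCAAT and an ATTGG that overlap as CCAATTGG. Of the 16 measured genes with a box, 4 were called lower with knockdown at 8 h, and of the 10 measured genes without, 5 were, with median log2 fold changes of -0.15 and -0.34. FADS2, ELOVL6, ACSL4, LPIN1 and LPIN2 had no box in this window, and neither had FADS1, whereas MVK, MVD, FDPS and NSDHL had 3 to 5 and stood at 0.04, 0.20, 0.02 and -0.05. The E2F pattern TTTNNCGC was found in MVK and ACACA (6.9% of all genes) and the sterol regulatory pattern TCACNCCAC in SREBF2 (1.15% of all genes), on either strand. A match of letters is no measured binding site, and other starts of a gene can hold other matches. Among the genes counted without a box, FADS2, IDI1, ACACA and ACSL1 held a box in another listed window. The split by box therefore rests on the window taken.

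**Figure D4:**
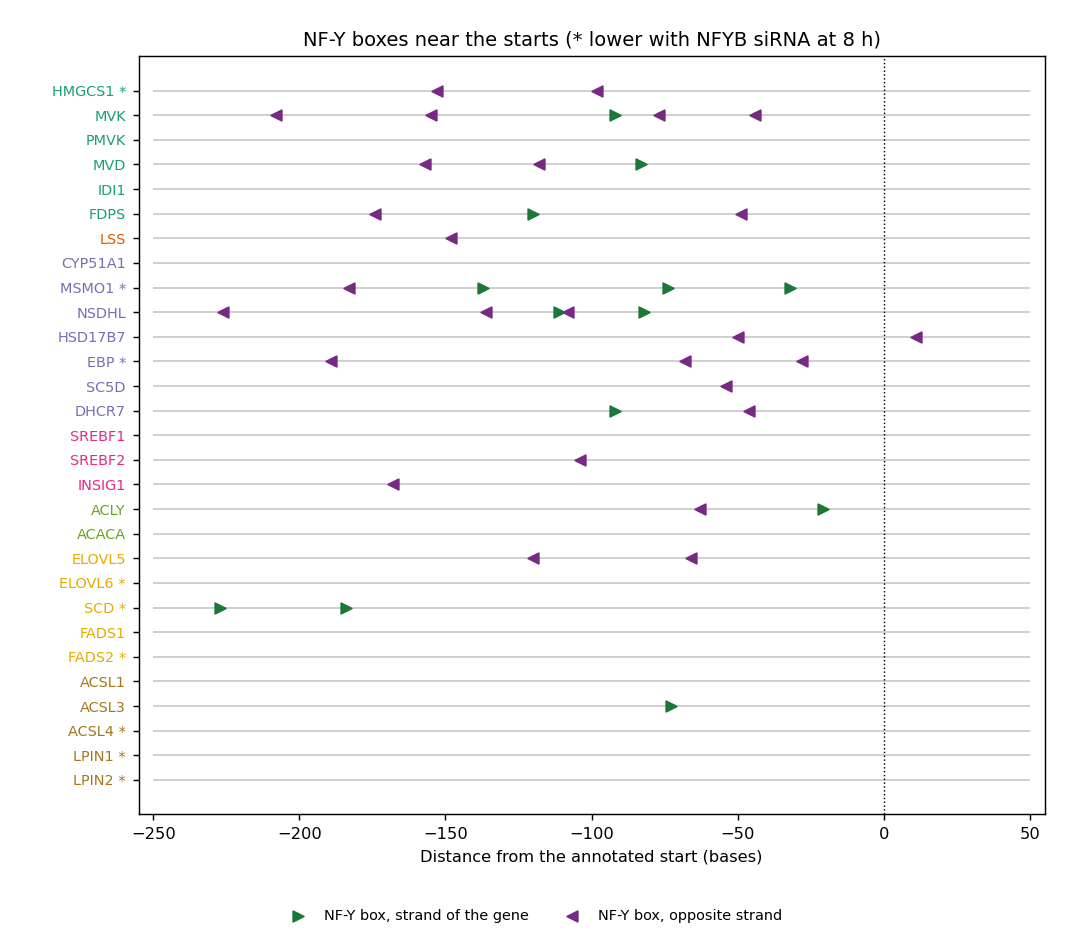
Positions of CCAAT boxes, labelled NF-Y boxes (triangles, by strand), in bases from the annotated start (horizontal axis) for the 29 genes with a RefSeq window (vertical axis, coloured by role as above); asterisks mark genes called lower with NFYB siRNA at 8 h. Boxes fill the upper rows, where 11 of 14 sterol genes hold them, and are few in the lower rows, where 4 of 12 fatty acid genes do.

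Over 8 h of OHT most of these genes changed in control siRNA cells, with most sterol genes lower and ACSL1 and LPIN2 higher on each of their probe sets. Of the 29 genes, 17 were called lower and 5 higher, where 34.3% and 21.1% of all genes were. The median log2 fold change was -0.37, against -0.16 over all genes. At 4 h, 7 were lower and 5 higher (27.8% and 17% of all genes), with a median of -0.17 against -0.14. The 6 arrays at 8 h and the 6 at 0 h did not overlap for 11 lower and 3 higher genes (23.7% and 15.4% of all genes).

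ACSL1 had the greatest change of the 29 genes. In control siRNA cells its lowest, median and highest signals were 231.5, 322 and 341.5 at 0 h, 822, 902 and 1128 at 4 h and 1693, 2019 and 2428 at 8 h, and in each step every array of the later time lay above every array of the earlier. The log2 fold change was 1.63 at 4 h (adjusted p = 1.2e-12) and 2.78 at 8 h (SE 0.14, adjusted p = 1.7e-19), and its other probe set rose by 2.56. LPIN2 had 729, 810.4 and 843 at 8 h and 312, 403 and 463 at 0 h (1.02, SE 0.10, adjusted p = 3.1e-11), and no array of 8 h was as low as any of 0 h. LPIN1, its paralog, moved the other way, with 749, 823 and 932 at 8 h and 1469, 1594 and 1765 at 0 h (-0.95, SE 0.12, adjusted p = 1.8e-08). FASN, which makes palmitate, was higher by 0.71 on its bright probe set (adjusted p = 6.7e-11). Its other probe set, at the 24.8 percentile of signal, stood at -0.40 and was not called (adjusted p = 0.59), and the mean of both was 0.16 at 8 h and 0.02 at 4 h. In the same cells ACLY, which supplies acetyl-CoA, stood at -0.60 (adjusted p = 0.0011). ACACA, which makes malonyl-CoA, was lower on its brightest probe set (-0.66, adjusted p = 2e-08) and higher on the other (1.19, adjusted p = 3.7e-12), so no direction is given for ACACA.

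In the sterol branch, 5 of 6 genes from lanosterol to cholesterol were called lower at 8 h in control siRNA cells. NSDHL had 472, 540 and 588 at 8 h and 980.3, 1112 and 1253 at 0 h (-1.04 on the log2 scale, SE 0.12, adjusted p = 3.2e-09). MSMO1 had 2221, 2374 and 2800 at 8 h and 4214, 4581 and 5262 at 0 h (-0.93, SE 0.10, adjusted p = 3.9e-10). The times did not overlap for either gene. At 4 h NSDHL had 582, 656 and 819 and MSMO1 2705, 3355 and 4048, with medians between those of the other times. SC5D, EBP and DHCR7 stood at -0.53, -0.37 and -0.36, and HSD17B7 at -0.09 (adjusted p = 0.26). The other SC5D probe set, near the floor at the 3.64 percentile of signal, stood at 0.43 (adjusted p = 0.57), the mean of both was -0.05, and the SC5D call was lost with either control siRNA alone. Upstream, PMVK, LSS, HMGCS1, MVK and FDPS were lower, at -0.71, -0.62, -0.58, -0.28 and -0.23 on the log2 scale. IDI1, the isomerase of the isoprene units, was higher by 0.33 (adjusted p = 0.0029). No MVK array of 8 h lay below the range of 0 h. The calls of MVK, HMGCS1 and DHCR7 were lost with the Sigma-Aldrich control alone. That of IDI1 was lost with the Dharmacon control alone, and that of FDPS with either. ACAT2, MVD and SQLE were not called at 8 h, although SQLE was higher at 4 h (0.39, adjusted p = 0.00026).

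The regulators changed over the same time. SREBF1 had 425, 495.5 and 551 at 8 h and 799, 921 and 989 at 0 h in control siRNA cells (-0.90 on the log2 scale, SE 0.11, adjusted p = 4.1e-09). All SREBF1 arrays of 8 h lay below all of 0 h. SREBF2 was lower, at -0.49 (adjusted p = 0.0012). INSIG1, itself induced by SREBP, was higher by 0.54 (adjusted p = 0.020) on its brightest probe set, and its other probe sets were not called (0.24 and 0.21). The SREBF2 call was lost with the Sigma-Aldrich control alone. That of INSIG1 was lost with the Dharmacon control alone, in the methods' test and without replicate number 1 or 2. Among desaturases and elongases ELOVL6 and SCD were lower, at -0.83 and -0.47 (adjusted p = 8.4e-07 and 0.0055), and the SCD call was lost with the Dharmacon control alone. FADS2 stood at -0.50 (adjusted p = 0.083), whereas the probe set annotated to FADS1 and MIR1908 was higher, with 3503, 3748 and 4093 at 8 h and 2626, 2828 and 2976 at 0 h (0.42, adjusted p = 0.0086). ELOVL5 and ACSL4 were at 0.14 and -0.20 and were not called.

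In NFYB siRNA cells, 18 genes were called lower and 5 higher at 8 h against 0 h of OHT (33.7% and 19.6% of all genes), with a median of -0.44 against -0.18 over all genes. All 6 genes from lanosterol to cholesterol were called lower on their brightest probe sets, with SC5D at 0.29 on its dim one (adjusted p = 0.72), MSMO1 at -1.22 and NSDHL at -1.07. HSD17B7 was at -0.19 (adjusted p = 0.017). Its call was lost with the Ambion siRNA alone, in the methods' test and without replicate number 2 or 3. That of SC5D was lost in the methods' test and without replicate number 2 or 3, and that of DHCR7 with the Dharmacon NFYB siRNA alone. HMGCS1 stood at -1.03, ELOVL6 at -0.94, SCD at -0.72, LPIN1 at -1.23 and ACSL4 at -0.84 (adjusted p = 0.00081). ACSL1, LPIN2, FASN, INSIG1 and SQLE were higher, at 2.08, 0.88, 0.88, 0.53 and 0.25. The calls of INSIG1 and SQLE were lost with the Ambion siRNA alone. ACSL1 had 1416, 1566 and 2162 at 8 h and 304, 390 and 559 at 0 h, again with no overlap. SREBF1 had 428, 492 and 648 at 8 h and 566, 792 and 1040 at 0 h, with overlap (-0.68), and NSDHL had 403, 540.2 and 636 at 8 h and 944, 1067 and 1313 at 0 h, with none. The response in each arm was set against that of the other by an interaction term. None of the 29 genes was called in limma, where 0.293% of all genes were, and 2 had an unadjusted p under 0.05. ACSL1 was the nearest, with a difference of -0.69 on the log2 scale (NFYB siRNA cells minus control siRNA cells, 95% interval -1.09 to -0.30, adjusted p = 0.21), followed by ACSL4 (-0.64, 95% interval -1.23 to -0.04, adjusted p = 0.67). For HMGCS1 the difference was -0.46 (95% interval -0.99 to 0.08), for MSMO1 -0.29 (-0.58 to 0.00) and for FADS2 0.66 (-0.02 to 1.34). The probe set annotated to FADS1 and MIR1908 had a difference of 0.64 (95% interval 0.25 to 1.03, adjusted p = 0.26). The interval of FADS2 reaches 1.34, so for FADS2 a difference above 1 on the log2 scale is not excluded. FADS2 had the greatest SE of this difference among the 29 genes (0.34), and ELOVL5 the smallest (0.087).

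Genes that surround these pathways were counted from 4 further lists, of which 10 of 16, 5 of 6, 14 of 19 and 9 of 10 genes had a probe set of their own. Of 10 measured genes of sterol uptake, transport and storage, 2 were called lower with NFYB siRNA at 0 h, where 2.37% of all genes were: ABCG1, a sterol exporter (-0.94, adjusted p = 0.00039), and NPC1, which moves cholesterol out of lysosomes (-0.35, adjusted p = 0.0084). At 4 and 8 h none of the 10 was called in limma, and 3 and 2 had an unadjusted p under 0.05. Of 5 genes of SREBP processing, 1 was called lower at 8 h, where 2.57% of all genes were: MBTPS1, the protease that makes the initial cut in SREBP (-0.39, adjusted p = 0.013). SCAP, the escort of SREBP, stood at 0.21 (adjusted p = 0.067). No gene was called among 14 others of fatty acid and glycerolipid synthesis or among 9 of fatty acid oxidation at any time in limma, and at most 2 of the 14 and 1 of the 9 had an unadjusted p under 0.05. Over 8 h of OHT in control siRNA cells, 7 of 10, 4 of 5, 3 of 14 and 5 of 9 genes of these lists were lower and 2, 0, 5 and 2 were higher, where 34.3% and 21.1% of all genes were. SCAP was lower, at -0.64 (adjusted p = 2.9e-10), and ME1, which supplies NADPH to fatty acid synthesis, was lower, at -0.96 (adjusted p = 2.8e-13). Of the oxidation genes, ECHS1 was higher by 0.93 and HADHB lower, at -0.74 (adjusted p = 2.2e-12 and 4e-12).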

How the data were processed

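RNA of 36 cultures was hybridised to 1 array each. The authors deposited MAS5 signal intensities, made in Affymetrix Expression Console (version not given) according to the submitters' processing notes, with each array scaled by the authors to a common trimmed mean. In the file the mean after trimming 2% at each end was 494.9 to 495.7. Signals ran from 0.0308 to 37606, and no 2 arrays were identical. Of 22277 probe sets, 62 controls were left out. Of the 22215 tested, 19064 name 1 gene, 1043 several and 2108 none in the platform annotation.

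The model had 6 groups, each holding the 6 arrays of an arm at a time, with siRNAs pooled as in the study. It was fitted to log2 signal (no offset) by limma 3.58.1 under R 4.3.3, letting the prior variance follow mean signal (36.3 degrees of freedom). Tests were two-sided, with p adjusted by Benjamini and Hochberg over all 22215 probe sets. The fit was tested on simulated data. Genes were described from the brightest probe set. Group values are given for genes called with knockdown at 8 h or at 2 of 3 times, or in the difference of responses, and for the 6 called genes with the greatest change over 8 h of OHT in control cells. In each surrounding list up to 4 genes per comparison could be named, by adjusted p. Members and lists were chosen with earlier results of these data known. The comparisons of single siRNAs, the probe sets that disagree and the genes of the promoter sequences were chosen after values had been seen. Replicates are separate cultures per the labels. In the main fit, p-values measure the spread between the 6 arrays of a group, which mixes cultures with the 2 siRNAs of the arm. The 6 arrays are treated as independent, although each arm holds only 2 siRNAs. Alternatives changed the scale (16 added before log2, or quantile normalization), the probe sets (only the upper 60% by signal, or all of a gene, averaged and called where any that shared the sign of the average was called), the model (a constant prior variance, 12 groups, siRNA as a random block with correlation 0.16, a replicate block, the methods' unequal-variance test) or the arrays (the compared groups alone, each siRNA by itself, without each replicate number, without each array).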

Additional observations from a re-analysis of the deposited data

Results flagged for a closer look

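Of 174 sets of 6 arrays (a gene in an arm at a time), 7 held an array apart from the other 5 by more than Dixon's 95% limit, and chance alone gives about 1 in 20. Of the 7 cases, 5 were on arrays of the Dharmacon NFYB siRNA, and 2 of those 5 were on the same array. With that siRNA, PMVK was 849.3 on replicate 1 at 0 h (the other 5 arrays of the arm, 651.1 to 704.5), and DHCR7 was 1300 on replicate 2 at 8 h (929.7 to 1001). On that same array SREBF2 was 459.2 (275.4 to 304.9). ELOVL6 was 945 on replicate 3 at 0 h (1584 to 1995), where its knockdown change of -0.43 was not called, and ACSL4 was 186.3 on replicate 2 at 4 h (74.66 to 94.36). In control cells FDPS was 5214 on replicate 3 of the Dharmacon siRNA at 4 h (4283 to 4584), and ACSL4 was 81.68 on replicate 1 of the Sigma-Aldrich siRNA at 4 h (134.9 to 177). None of these arrays belongs to a gene and time that was called with knockdown.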

How the results depend on the processing

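Counts of genes called with knockdown moved with the siRNAs, and so did the calls over all probe sets: 444 were lower at 0 h in the pooled fit, against 1358 in 12 groups, 893 with the Dharmacon NFYB siRNA alone and 878 against the Dharmacon control alone. At 0 h the count of 1 lower became 3 in the upper 60% of probe sets, 4 with all probe sets of a gene, 10 in 12 groups, 7 with the Dharmacon NFYB siRNA alone, 7 and 2 against the Dharmacon and Sigma-Aldrich control alone and 0 in the methods' test on linear signal. The count of 0 higher became 2 in 12 groups, 1 with the Dharmacon NFYB siRNA and 1 against the Dharmacon control. In those 3 fits the 352 probe sets called higher at 0 h became 1145, 559 and 863. At 4 h the 3 lower became 9 in 12 groups, 7 with the Dharmacon NFYB siRNA and 0 in the methods' test on linear and on log2 signal (0), and the 0 higher became 1 in 12 groups and 1 against the Dharmacon control. Over all probe sets, the 323 lower at 4 h became 1176, 770, 92 and 94 in the same order of fits. The 328 higher became 1108 in 12 groups and 959 against the Dharmacon control. At 8 h the 9 lower became 1 with the Ambion siRNA, 4 against the Sigma-Aldrich control, and 2 and 3 in the methods' test on linear and log2 signal. The 0 higher became 1 in the upper 60%, 2 in 12 groups and 1 against either control alone (1 and 1). Over all probe sets, the 485 higher at 8 h became 629 in the upper 60% and 1356 in 12 groups. They became 1020 and 602 against the Dharmacon and Sigma-Aldrich control alone. Over OHT in control cells, the 7 lower at 4 h became 11 after quantile normalization, 13 in 12 groups and 11 with the random block, and at 8 h the 17 lower became 11 with the Sigma-Aldrich control and the 5 higher became 3 with the Dharmacon control. In NFYB cells the 5 higher became 3 with the Ambion siRNA. For the difference of responses, 0 lower became 3 in 12 groups and 1 with the Dharmacon NFYB siRNA. How the calls over all probe sets moved in the fits over OHT and of the difference is not given here.

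Leaving out an array or a replicate number gave 1 to 3 lower and 0 to 1 higher genes at 0 h, 1 to 5 lower and 0 higher at 4 h, and 0 to 9 lower and 0 to 1 higher at 8 h with knockdown. The ranges were 5 to 10 lower and 4 to 6 higher at 4 h and 15 to 18 lower and 3 to 6 higher at 8 h of OHT in control cells, 15 to 18 lower and 3 to 5 higher in NFYB cells, and 0 for the difference. For 0 h, the count of 1 became 3 without Ambion NFYB replicate 1 at 0 h, and 2 without Ambion NFYB replicates 2 or 3 at 0 h or 1 at 8 h, Dharmacon NFYB replicate 2 at 8 h, or Sigma-Aldrich control replicates 1 or 3 at 0 h or 3 at 4 h. For 4 h it became 5 without Ambion NFYB replicate 2 at 4 h. The 0 higher became 1 at 0 h without Ambion NFYB replicate 2 at 0 h, and at 8 h without Sigma-Aldrich control replicate 1 at 8 h. ACACA, with its probe sets averaged, turned to 0.27 in control cells and 0.38 in NFYB cells over 8 h of OHT. Of 70 calls of single genes, the replicate block kept all 70, the random block 69 (without MSMO1 at 8 h) and the methods' test 47 or 50. The random block gives all probe sets the same correlation (0.16), so it cannot follow a gene whose siRNAs differ more. An example is SCD at 8 h, with means of 4751 and 3199 for the Ambion and Dharmacon NFYB siRNAs. The 69 kept calls therefore do not settle how far calls rest on the siRNAs. With the replicate block the counts were 1, 3 and 9 lower with knockdown at 0, 4 and 8 h. Across arms at the same time, arrays of equal replicate number deviated together in 5 of 36 pairs (r over 0.1). Arrays of different number did so in 9 of 72. Pairing within an arm or across times was not tested. Quantile normalization shifted the median of all genes by under 0.05.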
